A study of Mus musculus with 28 samples.

Results

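Copy number was followed at 10 genes that set the passage of cells from G1 into DNA synthesis: the D cyclins Ccnd1, Ccnd2 and Ccnd3, their kinases Cdk4 and Cdk6, the kinase inhibitor Cdkn2c, the E cyclins Ccne1 and Ccne2, the retinoblastoma gene Rb1 and the transcription factor gene E2f3. They were taken as a list of names, with earlier results of these data known but no threshold on these values. They are 10 of 20665 autosomal protein-coding genes tested. The measurements are exome sequencing of mouse tumours, a method that reads the captured coding parts of the genome, summarised by the authors as segments of equal copy number on build GRCm38. Every mouse had 1 altered and 1 null germline allele of Trp53, the gene of the tumour suppressor p53, on a background of 50% BALB/C and 50% C57BL6. The AD allele makes a p53 that forms dimers, and the RP allele makes one that stays a monomer, so that no tumour here had a normal p53 allele and no group without a p53 change was measured. Each genotype gave 7 thymic lymphomas and 5 sarcomas, collected at end point, each labelled with its own animal code. The labels used here give neither ages nor the site of the sarcomas. Ear DNA of 4 animals, labelled as normal controls, was not analysed here. The study set dimeric against monomeric p53 in each tumour type.

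In G1, D cyclins bind Cdk4 or Cdk6, and the active kinase adds phosphate to the Rb protein. Unphosphorylated Rb holds E2F transcription factors in check; once it is phosphorylated, E2F switches on genes for DNA synthesis, the E cyclins among them, and cyclin E with Cdk2 completes the phosphorylation. INK4 inhibitors such as p18, the product of Cdkn2c, bind Cdk4 and Cdk6 and keep the D cyclins off. Developing T cells are known to rely on Ccnd3 and Cdk6, and mice without p53 often develop thymic lymphoma.

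Each value below is a log2 copy ratio, the mean of the segments over a gene weighted by how much of the gene each covers; 0 is the reference level of the deposited values, and what DNA they were compared with, and how they were centred, is unstated. A gene is called gained at 0.3 or above and lost at -0.3 or below, and its chromosome median is the length-weighted median of the segments on its chromosome in that tumour. A change is focal where the gene differs from that median by 0.3 or more over a run of at most 10 Mb, and regional where the run is longer. It is a whole-chromosome change where the gene is gained or lost, is neither focal nor regional, and at least 80% of the chromosome is in the same state; other gained or lost values are broad. Normal cells in a tumour pull its values towards 0, so that fewer tumour cells with a change and fewer copies per cell cannot be told apart. The 24 tables held 3727 segments, 52 to 499 per tumour on the autosomes, with the most in AD thymic lymphomas 7 (499) and 6 (343). The autosomal markers, the targets or windows whose count each segment gives, numbered 204845 to 205076 per tumour. Their totals ran from 204845 to 204849 in AD and from 204917 to 204922 in RP thymic lymphomas. In sarcomas they ran from 205075 to 205076 in AD and from 205073 to 205074 in RP tumours. No ranges overlapped, though those of the sarcomas lay close together, so a difference in processing and the group cannot be told apart in any comparison made here. The median autosomal log2 ratio was -0.12 ± 0.07 (SD, n = 14) in thymic lymphomas and -0.03 ± 0.03 (n = 10) in sarcomas, and counts of calls from values centred on each tumour's own median are given beside those as deposited where they differ for a gene. The T-cell receptor loci Tcra, Tcrb, Tcrg and Tcrd, which T cells cut as they mature, each held a segment at -0.3 or below in 14 of 14 thymic lymphomas, and in 1, 1, 0 and 0 of 10 sarcomas. At Tcrg, on chromosome 13 with E2f3, the lowest segment ranged from -4.38 to -0.31 among thymic lymphomas. A loss of that whole chromosome would also pass the limit. The immunoglobulin loci Igh, Igk and Igl held such a segment in 13, 6 and 3 of 14 thymic lymphomas and in 1, 0 and 0 of 10 sarcomas. At Igk, on chromosome 6 with Ccnd2, the lowest segment ranged from -0.394 to -0.1139 among thymic lymphomas. These ends equal the chromosome 6 medians of RP thymic lymphoma 5 and AD thymic lymphoma 1, and a loss of that whole chromosome would also pass the limit. At Igh the lowest segment ranged from -4.11 to 0.12. Going by Igh, such losses were thus not confined to the T-cell receptor loci.

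The 10 genes were altered mostly together with the chromosomes that carry them, in 50 of 140 values in thymic lymphomas and 3 of 100 in sarcomas. In thymic lymphomas 26 values (18.6%) were gained and 24 (17.1%) lost, while all autosomal protein-coding genes gave 10.4% gained and 18% lost. Centred on each tumour's median, the same values gave 39 gained and 10 lost, so the balance of gains to losses depends on where 0 is set. Of the 50 altered values, 43 were whole-chromosome changes and 5 broad ones, and the other 2 were regional. In sarcomas the 3 altered values were gains and 0 were losses, against 1.83% and 0.714% over all genes. Over the 24 tumours, 231 of 240 values (96.25%) lay within 0.1 of the median of their chromosome, about the share over all genes (95.8%).

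**Figure D1:**
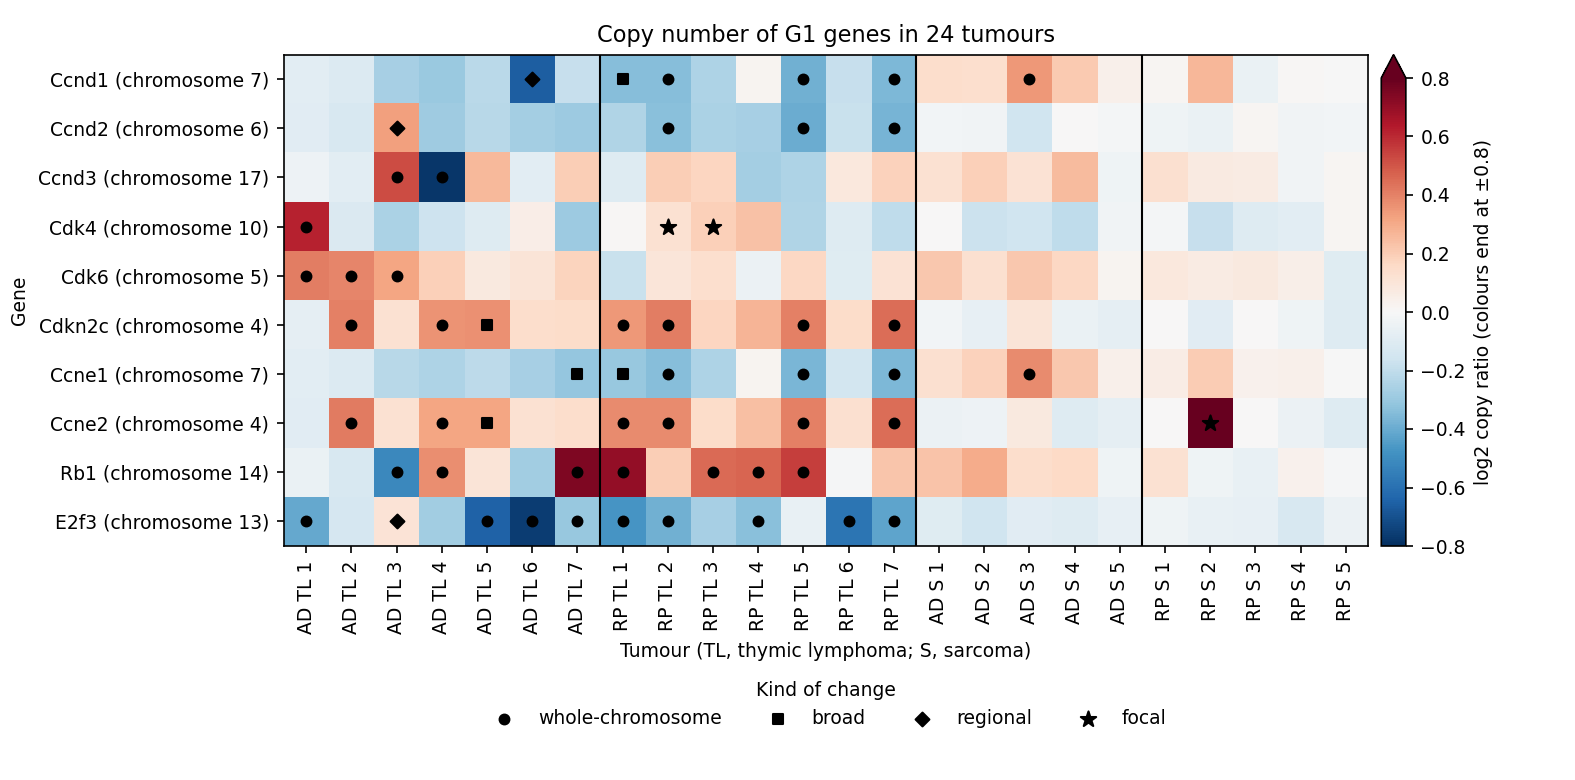
Log2 copy ratio (colour) of the 10 genes (rows, with their chromosome) in the 24 tumours (columns, by genotype and tumour type); black symbols give the kind of change and cells without a symbol are neither altered nor focal or regional. Thymic lymphomas carry 50 altered values, most of them whole-chromosome changes, and sarcomas 3; colours end at ±0.8, and Ccne2 in RP sarcoma 2 (2.04) lies beyond the scale.

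**Figure D2:**
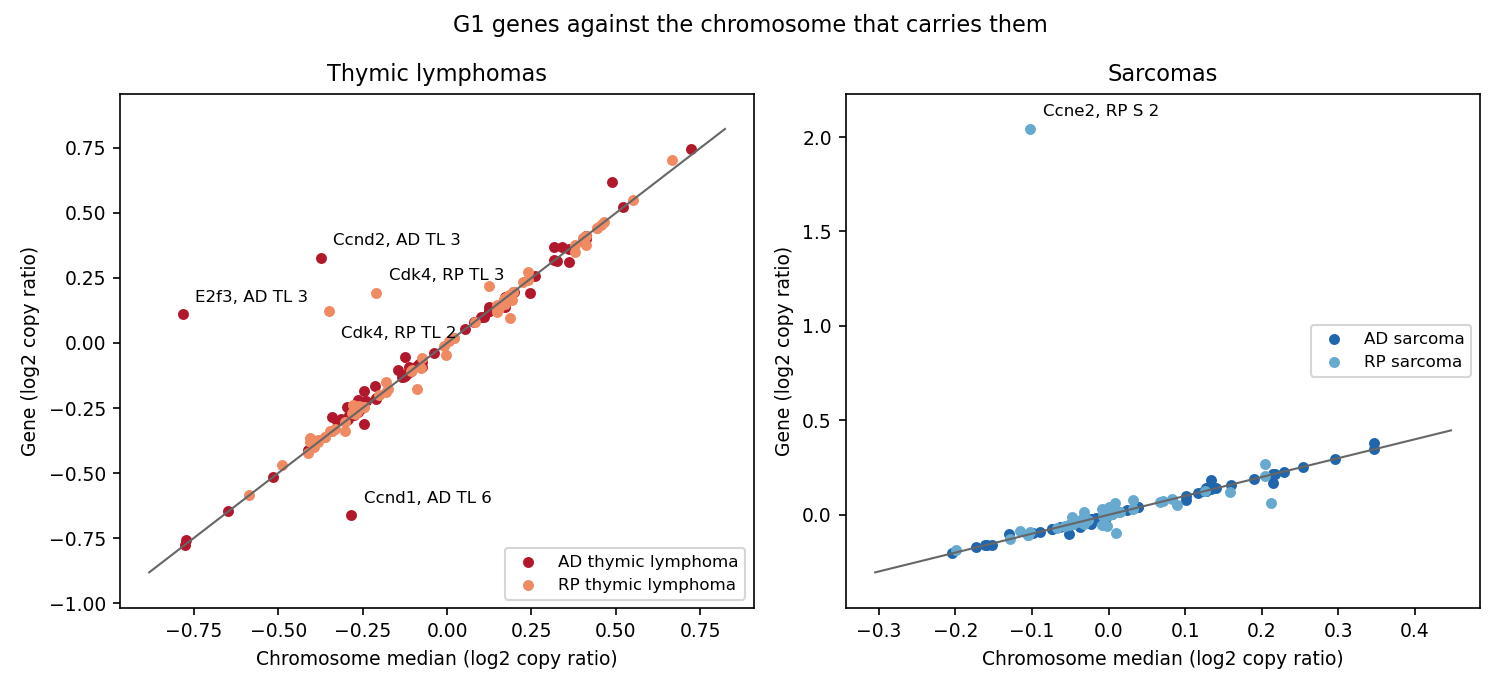
Log2 copy ratio of each gene (vertical axis) against the median of its chromosome in the same tumour (horizontal axis), left for 14 thymic lymphomas and right for 10 sarcomas, with axes of their own; the line marks equal values and named points are focal or regional changes. Points lie on or near the line apart from the 6 named ones, and Ccne2 in RP sarcoma 2 stands highest at 2.04.

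Short changes were seen at Ccne2 and Cdk4. Of the values of the 10 genes, 2 of 140 (1.43%) were focal in thymic lymphomas and 1 of 100 (1%) in sarcomas, against 1.29% and 0.439% of the values of all genes. A segment ended inside Cdk4 in 2 tumours and inside Ccne2 in 1, and inside none of the other 8 genes in any tumour; the first marker of chromosome 5, at position 3344366 inside Cdk6, is not counted as a segment end. Ccne2 encodes cyclin E2, 1 of the 2 E cyclins that activate Cdk2, and lies at chr4:11190433-11204779. In RP sarcoma 2 its copy ratio was 2.04, a ratio of 4.12 to the reference level, while the other 4 RP sarcomas had 0.00, 0.00, -0.05 and -0.10 and the 5 AD sarcomas -0.05, -0.04, 0.08, -0.10 and -0.07. RP sarcoma 2 thus stood far above the 9 other sarcomas, whose highest value was 0.08. The segment behind it ran over chr4:11192703-11202984, 10.3 kb with 11 markers, at a segment mean of 2.11. It began 2.27 kb after the start of the gene and covered 71.7% of it. Its neighbours were at -0.14 (257 markers, ending at position 11169709) and -0.12 (2906 markers), and the chromosome median was -0.10. The segment held no whole protein-coding gene (0) and touched 6.94% of Ints8, whose span overlaps that of Ccne2. In the segment table the gain covered part of the gene, and its length between markers was not measured. The tables place DNA by the position it maps to and do not show where extra copies lie, so that extra copies at Ccne2 and copies elsewhere in the genome cannot be told apart; the same holds for Cdk4.

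Cdk4, 1 of the 2 D cyclin kinases, lies at chr10:127063535-127067288. In RP thymic lymphoma 2 it was at 0.12 on a chromosome with a median of -0.35, and in RP thymic lymphoma 3 at 0.19 on one with a median of -0.21. Neither value reached 0.3, so neither is called a gain; both stand out only against their chromosome. The segment of RP thymic lymphoma 2 ran over chr10:127059397-127066928, 7.53 kb with 8 markers and 90.4% of the gene, and touched 19.1% of Marchf9. That of RP thymic lymphoma 3 ran over chr10:127064235-127066928, 2.69 kb with 7 markers and 71.8% of the gene. The neighbouring segments were at -0.34 and -0.24 in the first and at -0.22 and -0.16 in the second. Both segments ended at the same position and held fewer than 10 markers, and with segments under 10 markers set aside only the change at Ccne2 was left as focal.

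**Figure D3:**
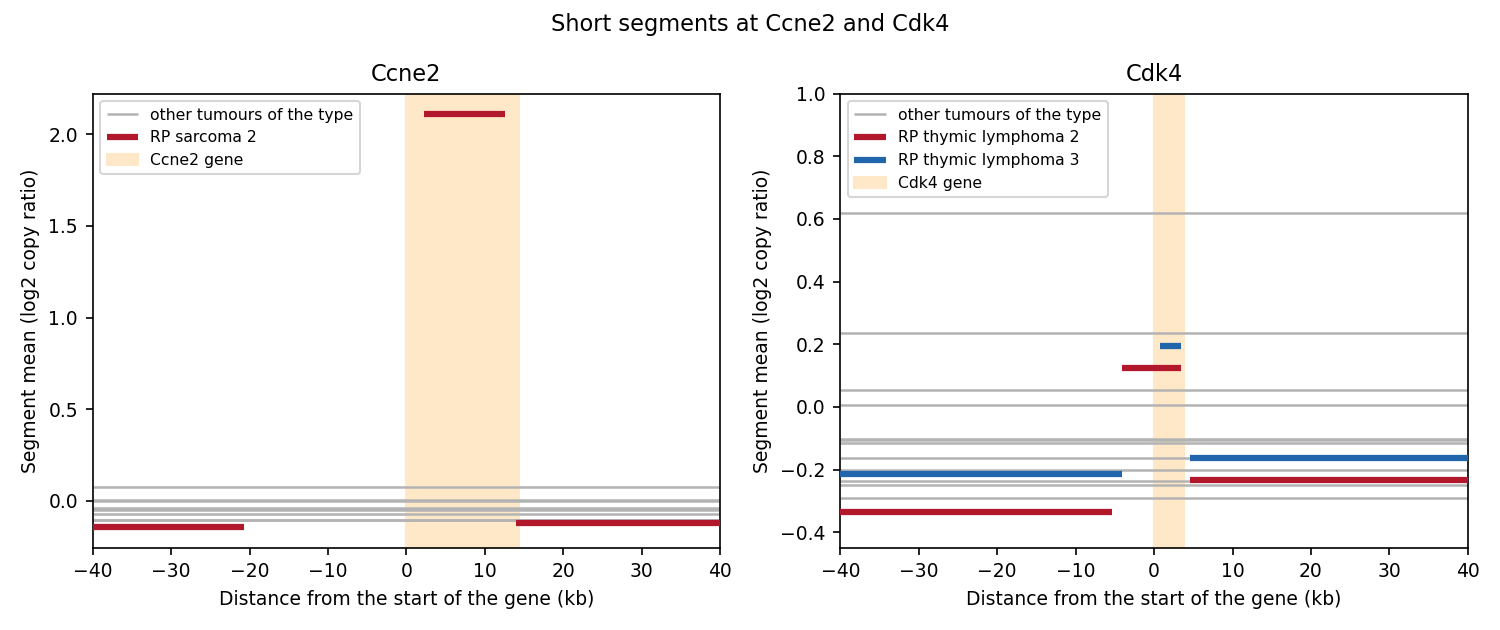
Segment means (log2 copy ratio) within 40 kb of the start of Ccne2 in the 10 sarcomas (left) and of Cdk4 in the 14 thymic lymphomas (right); horizontal axes give the distance from the start of the gene in kb, shading the gene, gray lines the other tumours of the type, and gaps lie between the markers of neighbouring segments. The Ccne2 segment of RP sarcoma 2 stands at 2.11 and the Cdk4 segments of RP thymic lymphomas 2 and 3 at 0.12 and 0.19.

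The sequence before the start of Cdk4 is shown because the short segment of RP thymic lymphoma 2 runs across it, while that of RP thymic lymphoma 3 starts 0.7 kb after the start of the gene. In RP thymic lymphoma 3, neighbouring segments ended at position 127059397, where the short segment of RP thymic lymphoma 2 began, and started at 127064235. No marker lay between these positions there, so the copy number of the bases printed here was not measured directly. RefSeq promoter windows (GRCm38.p6, 250 bases before to 50 after a start) matched 6 of the 10 genes, in 9 windows. The 250 bases before the Cdk4 start, chr10:127063285-127063534 on the plus strand, hold 4 copies of the E-box CACGTG, the palindromic motif that Myc with Max is known to bind, in capitals here.
Cdk4: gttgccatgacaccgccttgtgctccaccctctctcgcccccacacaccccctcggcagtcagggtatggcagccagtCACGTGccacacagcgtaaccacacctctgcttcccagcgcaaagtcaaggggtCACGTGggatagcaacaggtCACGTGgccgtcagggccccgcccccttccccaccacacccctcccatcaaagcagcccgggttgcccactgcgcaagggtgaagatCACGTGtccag
Of 32851 such windows, 6.02% held at least 1 CACGTG and 7 (0.0213%) held 4 or more; among the 9 windows, CACGTG was also found in 1 of Cdk6 and 1 of E2f3. Forms of the E2F motif (TTTGGCGC, TTTCCCGC, TTTGCCGC and TTTCGCGC, both strands) were in 1.86% of all windows and in 1 of the 9, at E2f3. A match is a run of letters and not a measured binding site.

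The D cyclins lie on chromosomes 7, 6 and 17. In thymic lymphomas Ccnd1 and Ccnd2 were each below 0 in 13 of 14 tumours, and Ccnd3 in 7. Ccnd1 (cyclin D1, chr7:144929931-144939831) ran from -0.66 to -0.08 in AD thymic lymphomas, with a median of -0.22, and from -0.38 to 0.02 in RP ones, with a median of -0.34. It was lost in 1 AD and 4 RP thymic lymphomas and below 0 in 13 of 14. Centred on each tumour's median, the losses left were 1 AD and 1 RP one (AD thymic lymphoma 6 and RP thymic lymphoma 5). The loss in AD thymic lymphoma 6 was regional: the gene stood at -0.66 against a chromosome median of -0.28, in a run of 24.7 Mb and 3821 markers that reached the last marker of chromosome 7. The next lowest AD value was -0.295 (AD thymic lymphoma 4), just above the limit for a loss. In the AD sarcomas Ccnd1 was at 0.14, 0.13, 0.35, 0.21 and 0.04, all above 0, and in the RP sarcomas at 0.01, 0.27, -0.05, 0.01 and -0.01. Only AD sarcoma 3 passed the limit for a gain, with its whole chromosome 7; centred, RP sarcoma 2 passed it as well.

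Ccnd2 (cyclin D2, chr6:127125162-127152188) ran from -0.40 to -0.18 in RP thymic lymphomas, with a median of -0.27, and was lost in 3 of 7, of which 1 (RP thymic lymphoma 5) was left when centred. In AD thymic lymphomas it ran from -0.29 to 0.33, with a median of -0.22, and 6 of 7 were below 0. The exception was AD thymic lymphoma 3, in which a run of 23.9 Mb and 1894 markers carried Ccnd2 at 0.33 over a chromosome median of -0.37, beside a segment of 0.991 Mb at -0.72. That run held 227 protein-coding genes, the nearest to Ccnd2 being Tigar, Fgf23, Fgf6, D6Wsu163e and Rad51ap1. In sarcomas Ccnd2 stayed between -0.16 and 0.01.

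Ccnd3 (cyclin D3, chr17:47505051-47599689) averaged 0.00 in each genotype of thymic lymphoma, but the single tumours lay far apart. In AD thymic lymphomas it ran from -0.78 (AD thymic lymphoma 4) through a median of -0.04 to 0.52 (AD thymic lymphoma 3), both extremes being whole-chromosome changes of chromosome 17. In RP thymic lymphomas it ran from -0.27 to 0.20, with no call in either direction as deposited. Centred, it was gained in 3 AD thymic lymphomas (3, 5 and 7) and 2 RP ones (2 and 7), and lost in AD thymic lymphoma 4.

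As deposited, the 2 kinases of the D cyclins were gained in 3 (Cdk6) and 1 (Cdk4) AD thymic lymphomas and in 0 RP ones, but centred on each tumour's median each was gained in 1 RP one as well. Cdk6 (chr5:3341004-3531008) ran from 0.08 to 0.41 in AD thymic lymphomas, with a median of 0.19, and was gained with its whole chromosome in AD thymic lymphomas 1 (0.41), 2 (0.39) and 3 (0.32). In RP thymic lymphomas it ran from -0.18 to 0.17, with a median of 0.10, and was gained in 0 of 7. The AD and RP ranges overlapped between 0.08 and 0.17. In sarcomas it was at 0.22, 0.13, 0.21, 0.17 and 0.02 in AD and at 0.08, 0.06, 0.08, 0.05 and -0.10 in RP tumours. Centred, Cdk6 was gained in 4 AD thymic lymphomas, 1 RP one and 1 AD sarcoma. Cdk4 was gained in AD thymic lymphoma 1 alone, at 0.62, with its chromosome 10; the other 6 AD thymic lymphomas lay between -0.29 and 0.05 and the RP ones between -0.24 and 0.24.

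Cdkn2c (p18, chr4:109660876-109666756) and Ccne2 share chromosome 4, 98.5 Mb apart, and were gained in the same 7 thymic lymphomas, 3 AD and 4 RP; centred, each was gained in 4 AD and 5 RP ones. Cdkn2c ran from -0.07 to 0.40 in AD thymic lymphomas (median 0.15) and from 0.15 to 0.44 in RP ones (median 0.35), and Ccne2 from -0.09 to 0.41 (median 0.14) and from 0.13 to 0.44 (median 0.38). An inhibitor and an activator of the same step thus moved with 1 chromosome. The values of the 2 genes were within 0.1 of each other in 23 of 24 tumours and came from 1 segment in 7; the exception was RP sarcoma 2, where Cdkn2c was at -0.09. Sarcomas had Cdkn2c between -0.10 and 0.10.

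Ccne1 (cyclin E1, chr7:38097984-38107490) shares chromosome 7 with Ccnd1 at a distance of 106.8 Mb. It ran from -0.31 to -0.08 in AD thymic lymphomas (median -0.22) and from -0.37 to 0.02 in RP ones (median -0.30), and was lost in 1 and 4 of 7; centred, 0 of these losses were left. As deposited, of the 6 thymic lymphomas that had lost Ccne1 or Ccnd1, 4 had lost both. The AD call was -0.31 in AD thymic lymphoma 7, in a segment of 0.25 Mb with 22 markers. In the AD sarcomas Ccne1 was at 0.13, 0.19, 0.38, 0.22 and 0.04, and in the RP sarcomas at 0.06, 0.20, 0.03, 0.04 and -0.01. Thymic lymphomas lay below 0 in 13 of 14 tumours and sarcomas above 0 in 9 of 10.

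Rb1 (chr14:73192858-73325951), whose protein is the brake on E2F, was more often gained than lost. In RP thymic lymphomas it was at 0.70, 0.19, 0.45, 0.47, 0.55, -0.01 and 0.22, a gain in 4 of 7. In AD thymic lymphomas it was at -0.06, -0.13, -0.52, 0.37, 0.10, -0.28 and 0.75, a gain in 2 and a loss in 1 (AD thymic lymphoma 3, with its whole chromosome). The lowest 4 values were all AD, yet the highest was AD as well, so the ranges overlapped widely. The 7 calls were whole-chromosome changes, and no segment ended within 100 kb of Rb1 in any tumour. Centred, the gains in RP thymic lymphomas became 6 of 7 and those in AD ones stayed at 2. Sarcomas ran from -0.06 to 0.30 with no call, and centred with 1 gain, in AD sarcoma 2; its value as deposited, the highest at 0.295, lay just under the limit.

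E2f3 (chr13:29906575-29986064), which encodes an activating E2F, was lost more often than any of the other 9 genes: in 4 AD and 5 RP thymic lymphomas. It ran from -0.76 to 0.11 in AD thymic lymphomas (median -0.30) and from -0.59 to -0.06 in RP ones (median -0.38). Each of the 9 losses was a whole-chromosome change; centred on each tumour's median, 5 were left. In AD thymic lymphoma 3 the chromosome stood at -0.78, while E2f3 was at 0.11 in a segment of 10.2 Mb and 635 markers. That segment was part of a regional run of 12.4 Mb and 786 markers that held 185 protein-coding genes. In the 10 sarcomas E2f3 stayed between -0.16 and -0.04.

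**Figure D4:**
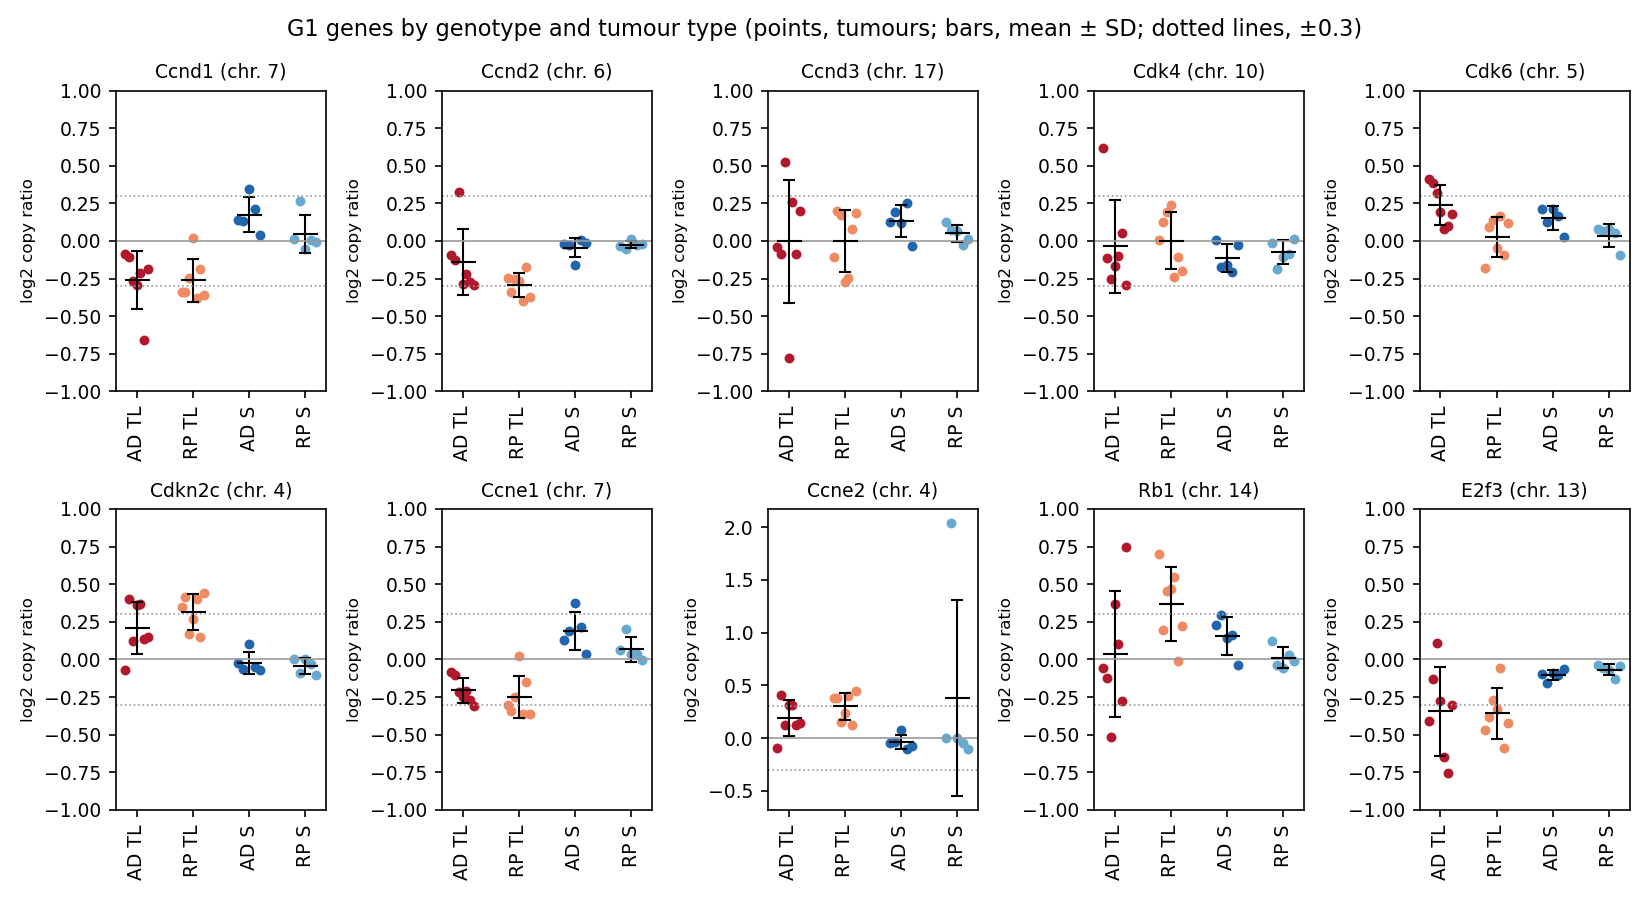
Log2 copy ratio of each gene by genotype and tumour type (TL, thymic lymphoma, n = 7 per genotype; S, sarcoma, n = 5 per genotype); points are tumours, bars the mean ± SD, dotted lines the limits for a gain (0.3) and a loss (-0.3), and Ccne2 has an axis of its own. Ccnd1 and Ccne1 lie below 0 in 13 of 14 thymic lymphomas, and the spread of Ccne2 in RP sarcomas (0.38 ± 0.93) comes from 1 tumour at 2.04.

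None of the 10 genes passed a test for genotype. Each of the 20665 genes was tested for a difference of means between AD and RP tumours by an exact two-sided permutation test within a tumour type, with Benjamini-Hochberg adjustment over all genes. In thymic lymphomas 0 of the 10 genes passed an adjusted p of 0.05, as did 0 of all genes (percent called 0), and 1 of the 10 and 1766 of all genes had an unadjusted p under 0.05. That gene was Cdk6, at 0.24 ± 0.13 (SD, n = 7) in the AD group and 0.03 ± 0.13 (n = 7) in the RP group, a difference of 0.21 (SE 0.07; exact permutation p = 0.0163, adjusted p = 0.469). The adjusted p of Cdk6 ran from 0.143 to 0.899 over 21 other settings. Rb1 was at 0.03 ± 0.42 in the AD group and 0.37 ± 0.24 in the RP group, and differed by -0.33 (SE 0.18; exact permutation p = 0.0944, adjusted p = 0.545). Ccnd2 differed by 0.15 (SE 0.09; exact permutation p = 0.0624, adjusted p = 0.545). By limma, which pools the spread over genes, 3 of the 10 and 3888 of all genes had an unadjusted p under 0.05. None passed, 0 of the 10 and 0 of all genes.

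In sarcomas 0 of the 10 and 0 of all genes passed (percent called 0), with 1 of the 10 and 1047 of all genes at an unadjusted p under 0.05. With 5 against 5 tumours the smallest p is 0.00794, and at least 3281 genes would have to reach it for any to pass. Cdk6 was the 1 of the 10, at 0.15 ± 0.08 (n = 5) in AD and 0.04 ± 0.07 (n = 5) in RP sarcomas, a difference of 0.11 (SE 0.05; exact permutation p = 0.0476, adjusted p = 0.557). Centred on each tumour's median, Cdk6 differed by 0.12 (exact permutation p = 0.0873). By that test 0 of the 10 and 421 of all genes then had an unadjusted p under 0.05. By limma 0 of the 10 and 127 of all genes had an unadjusted p under 0.05. Ccne2 differed by -0.42 (SE 0.42; exact permutation p = 0.476), a difference carried by RP sarcoma 2.

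Whether the genotype difference itself differed between tumour types was tested by permuting genotypes within tumour type; 0 of the 10 and 0 of all genes passed (percent called 0), with 2 of the 10 and 1903 of all genes at an unadjusted p under 0.05. Those 2 were Rb1, lower in AD than in RP thymic lymphomas and higher in AD (0.16 ± 0.12, n = 5) than in RP sarcomas (0.01 ± 0.07, n = 5), with an interaction of -0.48 (SE 0.19; permutation p = 0.0207, adjusted p = 0.433), and Ccnd2 (0.17, SE 0.09; permutation p = 0.0476, adjusted p = 0.529). By limma 1 of the 10 and 1671 of all genes had an unadjusted p under 0.05, and 0 of the 10 passed.

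Tumour type did separate 5 of the 10 genes. In thymic lymphomas against sarcomas, tested by permuting tumour type within genotype (100000 resamples, smallest p 1e-05), 4 of the 10 genes were lower and 1 higher, against 34.2% lower and 5.69% higher of all genes; the 10 genes were thus called at about the background rate. Ccnd1 averaged -0.26 ± 0.16 (SD, n = 14) in thymic lymphomas and 0.11 ± 0.13 (n = 10) in sarcomas, a difference of -0.37 (SE 0.06; permutation, adjusted p = 8.44e-05). Ccne1, on the same chromosome, averaged -0.23 ± 0.11 and 0.13 ± 0.12, a difference of -0.36 (SE 0.05; permutation, adjusted p = 8.44e-05). Cdkn2c was the gene that was higher in thymic lymphomas, at 0.26 ± 0.15 against -0.03 ± 0.06, a difference of 0.30 (SE 0.05; permutation, adjusted p = 0.000399).

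E2f3 was lower by 0.27 on average (difference -0.27, SE 0.06; permutation, adjusted p = 0.00774) and Ccnd2 by 0.18 (difference -0.18, SE 0.05; permutation, adjusted p = 0.0115). These last calls did not hold once each tumour was centred on its own median: E2f3 then differed by -0.18 (permutation, adjusted p = 0.0719) and Ccnd2 by -0.09 (permutation, adjusted p = 0.176), while Ccnd1, Ccne1 and Cdkn2c still passed. Over all genes, 14.3% of 8235 calls were higher in thymic lymphomas as deposited and 32.2% of 4513 when centred. With each gene taken relative to its chromosome median, 0 of the 10 passed, and 0 of all genes, with 1 of the 10 and 2113 of all genes at an unadjusted p under 0.05 in the same permutation test.

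The other 5 genes did not pass. Ccne2 averaged 0.25 ± 0.16 in thymic lymphomas and 0.17 ± 0.66 in sarcomas, a difference of 0.08 (SE 0.21; permutation, adjusted p = 0.888). Without RP sarcoma 2 the difference was 0.28 (permutation, adjusted p = 0.000715), so 1 tumour decided this call. Rb1 differed by 0.12 (SE 0.11; permutation, adjusted p = 0.569), Cdk4 by 0.08 (SE 0.07), Cdk6 by 0.04 (SE 0.05) and Ccnd3 by -0.09 (SE 0.09). Limma passed the same 5 genes as the permutation test.

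**Figure D5:**
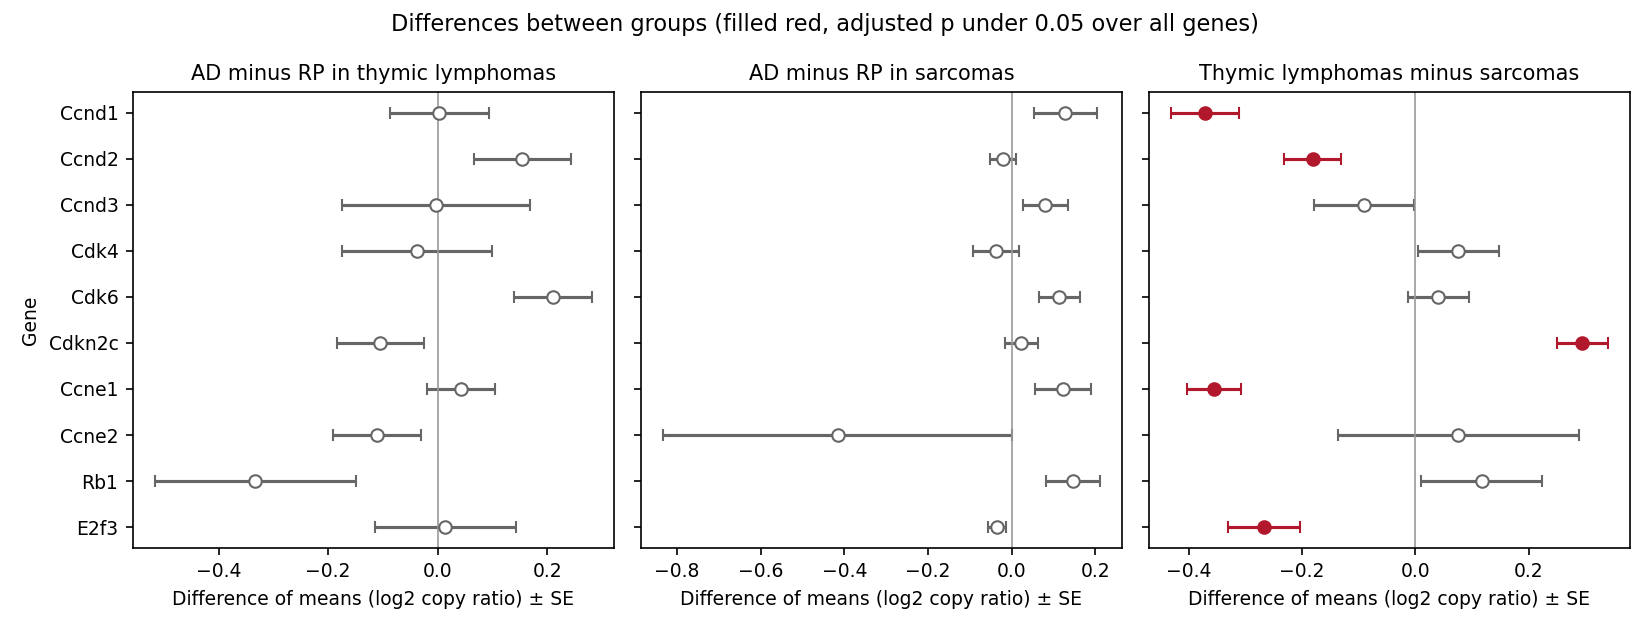
Differences of mean log2 copy ratio with their SE for the 10 genes, AD minus RP in thymic lymphomas (left) and in sarcomas (middle) and thymic lymphomas minus sarcomas (right), each with a horizontal axis of its own; filled red points passed an adjusted p of 0.05 over all genes. The red points are Ccnd1, Ccnd2, Cdkn2c, Ccne1 and E2f3, all in the right panel.

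Different tumours altered different genes of the pathway. As deposited, all 14 thymic lymphomas had at least 1 of the 10 altered, between 1 and 6, with a median of 3 in AD and 6 in RP tumours, against 2 of 10 sarcomas. In all, 22 of 70 values (31.4%) were altered in AD and 28 of 70 (40%) in RP thymic lymphomas, against 23.5% and 33.4% of the values of all genes. The 14 thymic lymphomas held 13 distinct sets. RP thymic lymphomas 2 and 7 shared theirs, with Cdkn2c and Ccne2 gained and Ccnd1, Ccnd2, Ccne1 and E2f3 lost. Values close to the limit can make sets differ. Ccnd1 at -0.295 in AD thymic lymphoma 4 was not called, and Ccne1 at -0.303 in RP thymic lymphoma 1 was called lost. Distinct sets were not counted when centred, at other limits or for other genes. In RP thymic lymphoma 3 only Rb1 was altered (gained) and in RP thymic lymphoma 6 only E2f3 (lost). Gains of Cdk6 (AD thymic lymphomas 1, 2 and 3) and of Rb1 (AD thymic lymphomas 4 and 7, RP thymic lymphomas 1, 3, 4 and 5) fell in 9 different tumours and in 0 together. Centred on each tumour's median, AD thymic lymphoma 7 and RP thymic lymphoma 7 had both. Whether 0 in common among 3 and 6 of 14 tumours departs from chance was not tested. As deposited, gains of Cdk6 also shared 0 tumours with losses of Ccnd1 and 0 with losses of Ccnd2. They shared 1 with gains of Cdkn2c and 1 with the gain of Cdk4. Ccnd2 was lost in 3 tumours, each of which had also lost Ccnd1; centred, both were lost in 1.

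By role, a cyclin, kinase or E2f3 was gained in 9 thymic lymphomas and lost in 11, and both a gain and a loss of such genes were found in 7. A brake, Rb1 or Cdkn2c, was gained in 10 and lost in 1, AD thymic lymphoma 3. That tumour had Ccnd2, Ccnd3 and Cdk6 gained and Rb1 lost, each on a chromosome of its own. Centred, activators were gained in 11 and lost in 7 thymic lymphomas, and brakes again gained in 10 and lost in 1. At a limit of 0.2, activators were gained in 10 and lost in 13 and brakes gained in 10 and lost in 2, and at 0.5 activators were gained in 2 and lost in 4 and brakes gained in 3 and lost in 1. A count of genes is not a count of events here, since Ccnd1 with Ccne1 and Cdkn2c with Ccne2 share chromosomes. In thymic lymphomas the 7 calls of Rb1 were whole-chromosome changes, and those of Cdkn2c were whole-chromosome in 6 and broad in 1. Counts of tumours by role were not made for other genes. They therefore do not set the brakes apart from other genes on chromosomes 4 and 14.

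A wider list of 31 genes of the G1 to S step was measured in the same way. It holds the other INK4 and the CIP/KIP inhibitors, the Rb relatives, other E2F and DP factors, Cdk2 with its A cyclins, the kinase that activates CDKs, and ligase parts that act on cyclins. Of its 434 values in thymic lymphomas 37 (8.53%) were gained and 90 (20.7%) lost, against 10.4% and 18% of the values of all genes. Between tumour types 3 of the 31 were higher in thymic lymphomas and 14 lower in the same permutation test, against 5.69% higher and 34.2% lower of all genes, with a median difference of -0.04 over the list and -0.04 over all genes. The 3 that were higher lie on chromosome 4 with Cdkn2c: Cdkn2a and Cdkn2b, which encode the INK4 inhibitors p16 (with Arf) and p15 (0.28 each), and E2f2, an activating E2F (0.27). The 14 lower ones were the CIP/KIP inhibitors Cdkn1b (-0.19) and Cdkn1c (-0.37), the Rb relative Rbl2 (-0.17), the E2F and DP factors E2f4 (-0.16), E2f5 (-0.17), E2f8 (-0.34) and Tfdp1 (-0.16), the A cyclins Ccna1 (-0.17) and Ccna2 (-0.17), the CDK-activating pair Cdk7 (-0.31) and Ccnh (-0.33), the Cdk2 inhibitory kinase Wee1 (-0.36), and the ligase parts Cks1b (-0.14) and Fbxw7 (-0.17). Centred, the 3 higher calls held and 9 of the 14 lower ones ended: Cdkn1b, Rbl2, E2f4, E2f5, Tfdp1, Ccna1, Ccna2, Cks1b and Fbxw7. The 5 that still passed were Cdkn1c, E2f8, Cdk7, Ccnh and Wee1. Centred calls thus made up 9.68% higher and 16.1% lower of the list, near the 7.04% and 14.8% of all genes. Inhibitors and activators stood on both sides, as deposited and centred. Cdk7 and Ccnh, on chromosome 13 with E2f3, were each lost in 5 AD and 5 RP thymic lymphomas. For genotype in thymic lymphomas, genotype in sarcomas and their interaction, 0 of the 31 passed the permutation tests, with 2, 1 and 1 at an unadjusted p under 0.05.

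Focal changes of the wider list were found at 4 genes, in 6 of 217 values in AD thymic lymphomas (2.76%, against 1.66% of all genes) and in 0 of 217 in RP ones (0.927% of all genes). Cdkn2d, the gene of the INK4 inhibitor p19, was at -0.47 in AD thymic lymphoma 6 and -0.86 in AD thymic lymphoma 7, both over chr9:21287698-21290808, 3.11 kb with 5 markers, on chromosomes with medians of 0.01 and 0.21. These are the tumours with the most segments (343 and 499), and the part of that in these losses was not tested. Cdkn1a (p21, a main p53 target) was at -0.88 in AD thymic lymphoma 2 over 841 kb and 202 markers. In AD thymic lymphoma 4 Cdkn1a was at 0.18 on a chromosome at -0.78, in a run of 9.09 Mb. E2f6 (0.31) and Mnat1 (0.29, the third subunit of the CDK-activating kinase) stood over a chromosome median of -0.02 in AD thymic lymphoma 5, in runs of 5.47 Mb and 2.13 Mb. Regional changes covered Cdkn2d in RP thymic lymphoma 7 (0.45), Fbxo5 in RP thymic lymphoma 6 (0.35), Cdkn1b in AD thymic lymphoma 3 (0.33, with Ccnd2) and Cdkn1c in AD thymic lymphoma 6 (-0.66, with Ccnd1).

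For 8 of the 10 genes, the gene of the wider list with the smallest mean absolute difference of log2 copy ratio over the 24 tumours lay on the same chromosome. Ccnd1 was nearest to Cdkn1c (0.00277), Ccnd2 to Cdkn1b (0.0044), Cdkn2c to Cdkn2a (0.00958) and Ccne1 to E2f8 (0.0143). Cdk4 was nearest to Cdk2 (0.0376), E2f3 to Cdk7 (0.0539), Ccnd3 to Cdkn1a (0.0935) and Ccne2 to Cdkn2a (0.108). The list held 0 genes on chromosomes 5 and 14, so the genes nearest to Cdk6 and Rb1 had to lie elsewhere: Cdkn1a on chromosome 17 (0.167) and Skp2 on chromosome 15 (0.176).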

How the data were processed

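The 24 tumour tables are the authors' deposited segments; per the file headers they list position, marker count and segment mean. Build GRCm38, GATK 4.1.0.0, BWA 0.7.17 and Trim Galore 0.6.5 are named in the submitters' processing notes. The deposited segment means are taken as log2 copy ratios, and the deposited marker count is a count of targets or windows and not of reads, so read depth is unknown. For comparison DNA, segmentation settings and centring, nothing is given in the sources used here.

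Gene spans came from RefSeq (GRCm38.p6). Each gene received the overlap-weighted mean of its segments, or the nearest segment where none overlapped. Tests were exact permutations (3432 splits of 7 against 7, 252 of 5 against 5) or 100000 stratified resamples, with Benjamini-Hochberg adjustment over 20665 autosomal protein-coding genes, and were tested on simulated data; limma 3.58.1 was an alternative. Adjusted p-values are from these fits over all genes. Python 3.11.15, numpy 2.4.6, pandas 2.3.3 and R 4.3.3 were used. The text names all 10 genes, list genes that passed a test or had a focal or regional change, the genes in or nearest to such runs, and each gene's nearest list gene. The 10 genes and the lists were chosen with earlier results of these data known. Replicate numbers follow the order of the labels and pair nothing.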

Additional observations from a re-analysis of the deposited data

Results flagged for a closer look

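Within a genotype and tumour type, the highest or lowest tumour stood apart from the others (Dixon's test at 95%) in 7 of 40 checks, 10 genes in 4 groups; chance flags about 1 in 20 groups, and genes on 1 chromosome are not independent. Ccne2 stood apart in RP sarcoma 2 at 2.04, with the next RP sarcoma at 0.00. Ccnd1 stood apart in the same tumour at 0.27, with the next at 0.01, and in AD thymic lymphoma 6 at -0.66, with the next at -0.30. Ccnd2 stood apart in AD thymic lymphoma 3 at 0.33, with the next at -0.09, and in AD sarcoma 3 at -0.16, with the next at -0.03. Cdk4 stood apart in AD thymic lymphoma 1 at 0.62, with the next at 0.05. Cdk6 stood apart in RP sarcoma 5 at -0.10, with the next at 0.05.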

How the results depend on the processing

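Segments of few markers, unknown read depth and an unknown comparison DNA limit these values. Tumours were few, so that a missed threshold does not show that groups are alike. Tumours of different groups could not be paired, because each was labelled with an animal code of its own. Between tumour types, 5 of the 10 genes passed as reported, 3 when centred and 0 relative to the chromosome median, and of all genes 8235, 4513 and 0; with genes of every type, more of them tested, 19140 passed. Limma passed 18 genes for genotype in sarcomas and 18 for the interaction, none of them among the 10, where the permutation tests passed 0. Losses in thymic lymphomas (24) became 10 when centred, 49 at a limit of 0.2 and 6 at 0.5, and gains there (26) became 5 at 0.5. Gains in sarcomas (3) became 6 when centred, 12 at 0.2 and 1 at 0.5, and 1 to 3 when 1 tumour was left out (1 without AD sarcoma 3); losses there became 1 at 0.2. Whole-chromosome changes (45) became 88 at 0.2 and 8 at 0.5. Focal changes (3) became 1 with segments of 10 or more markers, 1 at 0.5 and 6 with runs up to 25 Mb. Some differences that did not pass turned direction. For AD minus RP in thymic lymphomas, Ccnd1 was -0.00457 when centred, Cdk4 0.0639 with segments of 10 or more markers, and relative to the chromosome Ccnd1 was -0.0434, Cdkn2c 0.00344 and Ccne1 -0.00397. For AD minus RP in sarcomas, relative to the chromosome, Ccnd1 was -0.00402, Cdkn2c -0.00728, Ccne1 -0.0100 and E2f3 0.00408. For thymic lymphomas minus sarcomas, relative to the chromosome, Ccnd2 was 0.0606, Ccne2 -0.216 and E2f3 0.0672, so the calls of Ccnd2 and E2f3 turned as well as ended. For the interaction, Cdk4 was 0.102 with segments of 10 or more markers and 0.0326 without AD thymic lymphomas 6 and 7 together, a setting chosen after seeing the data, and relative to the chromosome Cdk6 was -0.00612, Cdkn2c 0.0107 and Ccne1 0.00605. With 1 tumour left out, AD minus RP in thymic lymphomas ran from -0.026 to 0.0703 for Ccnd1, -0.0902 to 0.126 for Ccnd3, -0.147 to 0.00452 for Cdk4 and -0.0616 to 0.0828 for E2f3. In sarcomas it ran from -0.0323 to 0.0088 for Ccnd2 and -0.00833 to 0.0354 for Cdkn2c. The interaction ran from -0.171 to 0.0459 for Ccnd3, -0.11 to 0.0422 for Cdk4, -0.11 to 0.426 for Ccne2 and -0.0265 to 0.118 for E2f3. Without AD thymic lymphomas 6 and 7, 5 of the 10 genes still passed between tumour types and 0 by genotype. The cause of these shifts was not tested.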
